A study of Homo sapiens with 10 samples.

Results

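The transcription factor NF-kB and the genes around it were followed in LoVo cells, a cell line from a human colorectal adenocarcinoma, on 10 Affymetrix HG-U133 Plus 2.0 arrays. The 33 members are genes named for the pathway: 5 NF-kB subunits, 5 proteins of the IkB family, 8 signalling and feedback proteins, 9 cytokines, 2 antagonists of interleukin 1 (IL1) and 4 other target genes. Of 19775 genes with a probe set that carries 1 gene symbol, 30 were members, and the probe set with the highest mean log2 signal stood for each gene. The ADMA group (n = 4) was kept in serum-free medium with 10 μM ADMA for 96 h. ADMA stands for asymmetric dimethylarginine, an arginine metabolite known as an inhibitor of nitric oxide synthases. The serum-starved group (SS, n = 3) had serum-free medium alone for 96 h, and the control group (C, n = 3) stayed in medium with 10% fetal bovine serum. The question was what serum starvation does to expression and what ADMA does when present throughout it. No group had ADMA together with serum. All groups are the same cell line, the labels call the arrays of a group biological replicates without saying how the cultures were separated, and p-values measure the spread between these arrays.

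NF-kB is a family of dimeric transcription factors built from RELA, RELB, REL and the processed products of NFKB1 and NFKB2. In resting cells the IkB proteins hold the dimers in the cytoplasm. Signals from IL1, tumour necrosis factor or bacterial products activate the IkB kinase (IKK) complex, which marks IkB for destruction and lets the dimers enter the nucleus. The targets include cytokines, survival genes and the pathway's own inhibitors, which close a negative feedback loop. In intestinal epithelium the pathway is known for the inflammatory response to injury and microbes, and in colorectal tumours for survival signalling. The arrays measured RNA, so the location and phosphorylation of these proteins were not seen.

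NF-kB dimers bind a 10-base kappa B motif, and windows of 250 bases before to 50 bases after a gene's start were searched for it on both strands (RefSeq sequences, GRCh38.p14). The pattern was GGGRNNYYCC, where R is A or G, Y is C or T and N is any base. Stretches that differ from it by 1 base, such as tggaaattcc in the window of ICAM1, were not counted. A window was found for 26 of the 33 members, 44 windows in all. The motif was present in 17 of the 44 windows (38.6%), against 3956 of all 35116 windows (11.3%). By gene, 14 of the 26 members (53.8%) held a match in at least 1 window, against 3619 of 27305 genes (13.3%). The members were named for the pathway and include its target genes, so a higher share than over all genes was partly built into the list. Members have more windows per gene than all genes do, so these shares are not matched for window number. LTB counts with 2 nearly identical windows that hold the same matches. A match is a description of the letters and not a site of binding. A gene is said to have risen or fallen where its Benjamini-Hochberg adjusted p over all genes tested was under 0.01 and its fold at least 1.2, and in SS cells against C cells 30.3% of all genes tested rose and 27.3% fell. Of the 13 members with a window that rose there, 6 held a match and 7 did not, and the 1 member that fell held one. Among 7 members with a window that passed in neither direction 5 held a match, and among 5 that were not tested 2 did. The 6 that rose with a match and the 1 that fell are printed, each in its first window with the motif, to show where it sits. Capitals mark the bases covered by a match. The windows are NFKBIZ at chr3:101827740-101828039 (plus strand), TNFAIP3 at chr6:137867009-137867308 (plus), NFKBIA at chr14:35404700-35404999 (minus), REL at chr2:60881324-60881623 (plus), NFKB2 at chr10:102394328-102394627 (plus), TNIP1 at chr5:151080985-151081284 (minus) and TRAF3 at chr14:102777199-102777498 (plus).
NFKBIZ: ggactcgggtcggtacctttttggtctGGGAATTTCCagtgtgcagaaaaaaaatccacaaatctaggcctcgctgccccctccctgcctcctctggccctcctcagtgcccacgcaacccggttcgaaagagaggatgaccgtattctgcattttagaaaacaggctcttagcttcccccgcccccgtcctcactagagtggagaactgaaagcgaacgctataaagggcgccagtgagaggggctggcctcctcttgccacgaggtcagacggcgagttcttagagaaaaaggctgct
TNFAIP3: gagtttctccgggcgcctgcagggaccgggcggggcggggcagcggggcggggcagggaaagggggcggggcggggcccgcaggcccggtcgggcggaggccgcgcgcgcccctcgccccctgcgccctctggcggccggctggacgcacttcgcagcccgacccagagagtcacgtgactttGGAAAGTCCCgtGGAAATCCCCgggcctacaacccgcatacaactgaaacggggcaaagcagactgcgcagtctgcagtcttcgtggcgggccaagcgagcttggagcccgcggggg
NFKBIA: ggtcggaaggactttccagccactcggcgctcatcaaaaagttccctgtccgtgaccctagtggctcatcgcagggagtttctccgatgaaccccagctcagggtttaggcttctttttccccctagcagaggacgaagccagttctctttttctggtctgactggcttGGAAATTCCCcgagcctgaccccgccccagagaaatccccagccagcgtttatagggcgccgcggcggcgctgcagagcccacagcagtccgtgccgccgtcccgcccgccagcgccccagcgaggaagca
REL: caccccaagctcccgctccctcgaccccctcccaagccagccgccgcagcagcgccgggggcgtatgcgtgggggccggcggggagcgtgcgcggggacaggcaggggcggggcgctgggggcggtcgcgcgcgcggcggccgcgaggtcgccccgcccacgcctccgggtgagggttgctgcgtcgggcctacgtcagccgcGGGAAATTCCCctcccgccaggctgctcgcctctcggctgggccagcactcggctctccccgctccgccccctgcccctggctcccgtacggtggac
NFKB2: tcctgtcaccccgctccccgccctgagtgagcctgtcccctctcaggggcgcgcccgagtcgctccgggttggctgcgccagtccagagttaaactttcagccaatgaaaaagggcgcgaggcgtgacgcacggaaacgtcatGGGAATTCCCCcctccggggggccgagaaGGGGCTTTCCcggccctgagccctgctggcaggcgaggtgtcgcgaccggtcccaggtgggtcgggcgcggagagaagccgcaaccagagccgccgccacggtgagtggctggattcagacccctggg
TNIP1: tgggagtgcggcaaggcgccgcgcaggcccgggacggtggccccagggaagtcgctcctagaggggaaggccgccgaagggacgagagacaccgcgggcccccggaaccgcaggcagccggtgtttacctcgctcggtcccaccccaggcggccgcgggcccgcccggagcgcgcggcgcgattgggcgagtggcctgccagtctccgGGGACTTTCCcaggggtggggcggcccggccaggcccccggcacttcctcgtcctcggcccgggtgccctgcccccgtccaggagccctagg
TRAF3: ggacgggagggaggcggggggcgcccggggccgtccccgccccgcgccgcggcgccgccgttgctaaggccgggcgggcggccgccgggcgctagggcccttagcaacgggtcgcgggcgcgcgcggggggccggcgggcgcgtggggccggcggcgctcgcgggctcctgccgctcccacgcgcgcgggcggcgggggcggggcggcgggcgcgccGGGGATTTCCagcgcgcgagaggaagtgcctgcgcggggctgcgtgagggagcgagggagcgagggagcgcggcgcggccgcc
In TNFAIP3 a pair of matches on the other strand begins 67 and 55 bases before the start. The match of NFKBIA begins 81 bases before the start, that of REL 47, that of TNIP1 42, that of TRAF3 33 and that of NFKBIZ 223. NFKB2 holds overlapping matches from 107 bases before the start and another at 78. Among the members that rose in SS cells, the windows of RELA, TRAF1, IRAK2, IL1B, TNFSF15, IL1RN and SOD2 held none of these letters, which says nothing about the factor at those genes.

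The deposited intensities were scaled by the authors to 1 trimmed mean, 500.1 on every array, and their log2 is the signal given for each gene. The median signal was 91.8 to 98.1 on ADMA arrays, 87.4 to 90.6 on SS arrays and 60.6 to 73.1 on C arrays, so scaling by the median instead moves every difference by -0.12 (ADMA minus SS), -0.39 (SS minus C) or -0.51 (ADMA minus C) on the log2 scale. The 3' to 5' signal ratio of ACTB was 1.02 to 1.05 on ADMA arrays, 1.13 to 1.23 on SS arrays and 1.01 to 1.08 on C arrays, and its part in the results was not tested. The array's control probe set for the 5' part of 28S ribosomal RNA gave 795 to 1052 on ADMA arrays, 1345 to 2014 on SS arrays and 501 to 634 on C arrays, the SS, ADMA, C order that several members have, and its part was not tested. All 12 colon epithelium markers passed the filter on low signal, with summed signals of 157143 to 178518 on ADMA arrays, 125554 to 144229 on SS arrays and 92475 to 93564 on C arrays. Of these 12 markers 8 rose and 1 fell in ADMA cells against SS, and 5 rose and 3 fell in SS cells against C, and their part was not tested. Of 9 leukocyte markers with a probe set, 2 passed (CD3E and ITGAM), PTPRC, CD14 and NKG7 lay under the background level on all 10 arrays, and the summed signal of the list was 397 to 588 on ADMA arrays, 513 to 569 on SS arrays and 369 to 487 on C arrays. Of 10 fibroblast markers 5 passed, with sums of 3403 to 3657 on ADMA arrays, 3372 to 3557 on SS arrays and 2399 to 2530 on C arrays, and their part was not tested either. All arrays are of 1 cell line, so the leukocyte and fibroblast lists describe the RNA of these genes and were not read as a share of other cells. In bulk RNA, fewer cells of a type and less RNA per cell cannot be told apart.

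A gene was tested if the mean of its probe set reached a signal of 76.2, the 50th percentile of probe sets, which left 12344 genes and 28 members. The test was limma's, fitted over all 10 arrays. In SS cells against C cells 16 of the 28 members rose, where 30.3% of all genes tested rose, and 1 fell, where 27.3% fell. TRAF1 and IL1RN are counted among the rises over C in SS and in ADMA cells. Their C means, 5.41 and 5.11, lay under the filter at a log2 signal of 6.25. They were tested only through the arrays where they were high, so those counts gain no support from them. The members' median log2 difference was 0.52, against 0.07 over all genes. The members were chosen with earlier results of these data known, so their shares and medians are a description and no independent support. In ADMA cells against SS cells 3 members rose (15.7% of all genes) and 11 fell (13.8% of all genes), with a median of -0.36 against 0.03. In ADMA cells against C cells 13 members rose (26.6% of all genes) and 3 fell (23.2% of all genes), with a median of 0.37 against 0.07. Both comparisons with SS share the SS arrays and both with C share the C arrays, so their differences are set side by side and not treated as independent. With each array centred on its median, 11 members rose and 5 fell in SS against C, 2 rose and 13 fell in ADMA against SS, and 8 rose and 9 fell in ADMA against C. Over all genes the same centring gave 2013 higher and 5184 lower in SS against C, 901 and 2093 in ADMA against SS, and 1209 and 6101 in ADMA against C. The members' median with centring was 0.14 in SS against C and -0.48 in ADMA against SS, while in ADMA against C it changed sign, to -0.13, beside -0.44 over all genes.

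**Figure D1:**
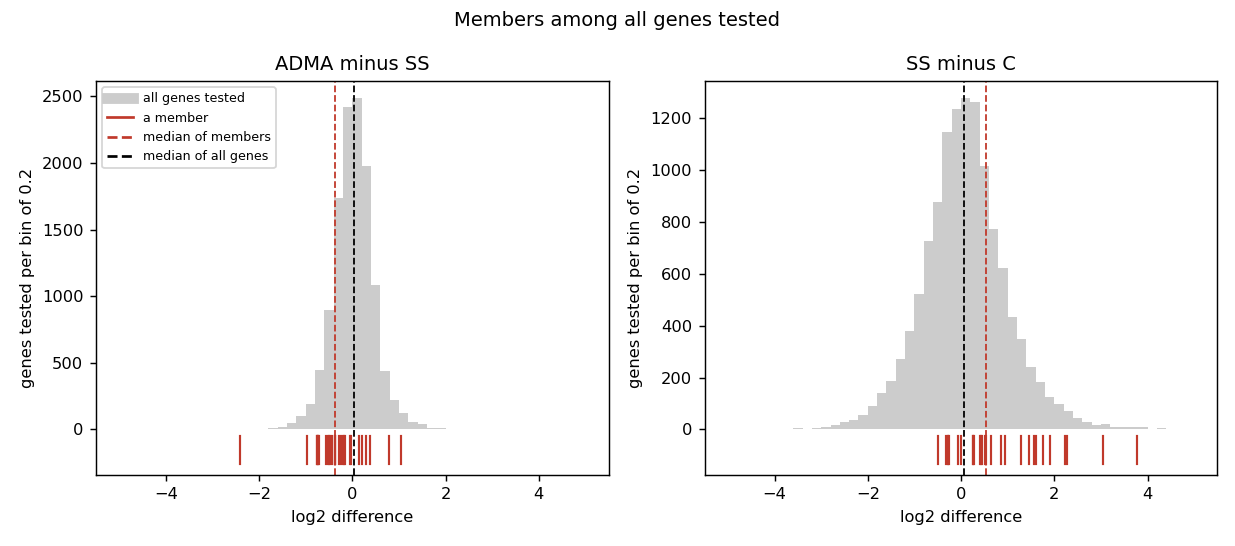
Distribution of log2 differences over the 12344 genes tested (grey bars, number of genes per bin of 0.2), with a red tick below for each of the 28 tested members and dashed lines at the medians of members (red) and all genes (black). The members' median lies at -0.36 for ADMA minus SS (left) and 0.52 for SS minus C (right), against 0.03 and 0.07 over all genes; differences beyond 5 are outside the axis.

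Among the subunits, RELB, RELA, REL and NFKB2 rose in SS cells and NFKB1 did not pass. RELB, the transcriptional partner of the NFKB2 product in the non-canonical pathway, had log2 signals of 7.76, 8.10, 7.73 and 7.95 on the ADMA arrays, 8.72, 8.58 and 8.57 on the SS arrays, and 7.55, 6.91 and 7.06 on the C arrays. The 3 groups did not overlap, with SS highest and C lowest. RELB rose in SS cells by 1.45 over C (standard error 0.18, adjusted p = 5e-06), fell in ADMA cells against SS at -0.74 (standard error 0.17, adjusted p = 0.00287) and rose in ADMA cells against C by 0.71 (adjusted p = 0.00207). Without SS replicate 1 or 2 the ADMA against SS call of RELB was lost (adjusted p = 0.017 and 0.0107), and without C replicate 2 or 3 that of ADMA against C (adjusted p = 0.0137 and 0.0104), as it was with quantile normalization (0.31, adjusted p = 0.107) and centring (0.21, adjusted p = 0.296). RELA, the main activating subunit of the canonical pathway, averaged 10.92 ± 0.11 in ADMA cells (SD, n = 4), 11.37 ± 0.07 in SS cells (SD, n = 3) and 10.42 ± 0.15 in C cells (SD, n = 3), and these groups did not overlap either. It rose in SS cells by 0.95 over C (standard error 0.09, adjusted p = 1.38e-07) and fell in ADMA cells at -0.44 against SS (standard error 0.08, adjusted p = 0.000452). Against C it rose in ADMA cells by 0.51, or by 0.00 with centring, where the call was lost (adjusted p = 0.982). Its second probe set had log2 differences of 0.02 for SS minus C and -0.18 for ADMA minus C, so its sign was opposite in ADMA against C.

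REL, the subunit best known from lymphocytes, rose in SS cells by 0.54 over C (standard error 0.09, adjusted p = 7.16e-05), or by 0.15 with centring, where the call was lost (adjusted p = 0.284). Against SS it had -0.29 in ADMA cells (adjusted p = 0.0112), while 3 other probe sets of REL over the filter had 0.43, 0.42 and 0.14 there, so the direction for REL differs between its probe sets. NFKB2, the precursor subunit of the non-canonical pathway, rose in SS cells by 0.86 over C (standard error 0.26, adjusted p = 0.0092), the call nearest to the threshold among the 16 rises. That call was lost with quantile normalization (0.47, adjusted p = 0.0975), with centring (0.47, adjusted p = 0.0943) and without any 1 of ADMA replicates 2 and 3, SS replicates 1 to 3 or C replicates 2 and 3 (adjusted p = 0.0111 to 0.0514). NFKB1, whose processed product lacks a transactivation domain, averaged 9.66 ± 0.15 in ADMA cells (SD, n = 4), 9.82 ± 0.13 in SS cells (SD, n = 3) and 10.11 ± 0.06 in C cells (SD, n = 3). It fell in ADMA cells against C at -0.45 (standard error 0.09, adjusted p = 0.000645) and did not pass in SS cells against C at -0.29 (adjusted p = 0.0184).

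NFKBIZ stood out in the IkB family. This nuclear IkB protein, IkB-zeta, binds NF-kB at secondary response genes and serves as a co-regulator there. Its log2 signals were 11.62, 11.29, 11.55 and 11.26 on the ADMA arrays, 12.51, 12.39 and 12.33 on the SS arrays, and 9.43, 9.28 and 9.39 on the C arrays. No 2 groups overlapped, and every ADMA array lay between the SS and the C arrays. NFKBIZ rose in SS cells by 3.04 over C, 8.24-fold (standard error 0.09, adjusted p = 2.47e-12), and fell in ADMA cells at -0.98 against SS (standard error 0.09, adjusted p = 9.73e-07), which left it 2.06 above C (adjusted p = 1.27e-10). A second probe set of NFKBIZ had 3.56 for SS minus C, -1.02 for ADMA minus SS and 2.54 for ADMA minus C. NFKBIA, the classical IkB-alpha that NF-kB itself induces, rose in SS cells by 0.43 over C (standard error 0.09, adjusted p = 0.000633), a difference of 0.04 with centring (adjusted p = 0.794). Its ADMA and SS arrays overlapped, at -0.24 (adjusted p = 0.034). NFKBIE, IkB-epsilon, did not pass in any comparison as deposited (with centring it passed as lower in ADMA against C, at -0.41), with 0.27 in SS against C (adjusted p = 0.0667) and -0.17 in ADMA against SS (adjusted p = 0.256). NFKBIB, IkB-beta, had log2 differences of -0.01 for SS minus C and -0.71 for ADMA minus SS (standard error 0.23, adjusted p = 0.0212). The ADMA arrays of NFKBIB, 6.98 to 7.76, lay below its SS arrays, 7.86 to 8.75, and its C arrays, 8.06 to 8.25. The ADMA minus C difference of NFKBIB was -0.71 (standard error 0.23, adjusted p = 0.0138), and it passed with SAM (adjusted p = 0.00885), quantile normalization (-1.05, adjusted p = 0.00146), centring (-1.22), the mean of its probe sets (-1.32), the arrays of these groups alone (adjusted p = 0.00608), and without ADMA replicate 3 (adjusted p = 0.00919) or SS replicate 2 (adjusted p = 0.00439). That mean also passed in ADMA against SS (-1.21, adjusted p = 0.000374), as did centring (-0.83, adjusted p = 0.00504). The mean includes a probe set under the filter, with -2.22 in ADMA against SS and -2.43 in ADMA against C. The other NFKBIB probe set over the filter had -0.70 and -0.82.

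Among the signalling and feedback proteins TNFAIP3 had the largest rise in SS cells. It encodes a ubiquitin-editing enzyme that shuts off signalling from the tumour necrosis factor receptor and from Toll-like receptors. TNFAIP3 had log2 signals of 9.49, 9.57, 9.32 and 9.31 on the ADMA arrays, 10.23, 10.15 and 10.15 on the SS arrays, and 7.88, 7.84 and 8.01 on the C arrays. Again the ADMA arrays lay between the others without overlap. The SS minus C difference was 2.26 (standard error 0.10, adjusted p = 9.53e-11), the ADMA minus SS difference -0.76 (standard error 0.09, adjusted p = 2.11e-05) and the ADMA minus C difference 1.51 (adjusted p = 5.92e-09). TNIP1, the adaptor that binds the TNFAIP3 protein, rose in SS cells by 0.64 over C (standard error 0.07, adjusted p = 1.34e-06), or by 0.25 with centring (adjusted p = 0.0468). It fell in ADMA cells at -0.75 against SS (standard error 0.07, adjusted p = 8.58e-07). The TNIP1 signal was 11.32 to 11.49 on ADMA arrays, overlapping 11.38 to 11.65 on C arrays, and 12.14 to 12.18 on SS arrays.

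IRAK2, a kinase-like adaptor downstream of the IL1 receptor, had log2 signals of 8.66, 8.42, 9.005 and 8.53 on the ADMA arrays, 9.57, 9.47 and 9.11 on the SS arrays, and 7.72, 7.86 and 7.75 on the C arrays. The groups were ordered SS, ADMA, C without overlap, though the highest ADMA array came close to the lowest SS array. IRAK2 rose in SS cells by 1.61 over C (standard error 0.16, adjusted p = 3.86e-07) and fell in ADMA cells at -0.73 against SS (standard error 0.15, adjusted p = 0.00117). With the mean over its 3 probe sets, 2 of them under the filter, these became 0.72 (adjusted p = 0.0526) and -0.91 (adjusted p = 0.0257), and the ADMA minus C difference turned from 0.88 to -0.18 (adjusted p = 0.608). TRAF1, an adaptor of tumour necrosis factor receptors that NF-kB induces, had 6.51, 6.53, 6.73 and 6.69 on the ADMA arrays, 7.21, 6.63 and 7.10 on the SS arrays, and 5.04, 5.36 and 5.83 on the C arrays, of which 1 lay under the background level. ADMA and SS arrays of TRAF1 overlapped and both lay above C. TRAF1 rose by 1.57 in SS cells over C (standard error 0.31, adjusted p = 0.000339) and by 1.21 in ADMA cells over C (standard error 0.29, adjusted p = 0.00196). The second of these was 0.69 with quantile normalization (adjusted p = 0.0563) and 0.70 with centring (adjusted p = 0.0574), and 0.84 with dim signals raised to the background (adjusted p = 0.0105), so that each of these ended the call. TRAF3, which restrains the non-canonical pathway by promoting the breakdown of its kinase, was the 1 member that fell in SS cells, at -0.50 against C (standard error 0.09, adjusted p = 0.00014). ADMA cells had TRAF3 at -0.56 against C (adjusted p = 3.29e-05) and at -0.06 against SS (adjusted p = 0.598). RIPK2, the kinase that serves the NOD receptors, did not pass in any comparison as deposited, with differences of -0.06 to 0.14, but was called lower with centring in SS against C (-0.45, adjusted p = 0.00459) and in ADMA against C (-0.43, adjusted p = 0.004).

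**Figure D2:**
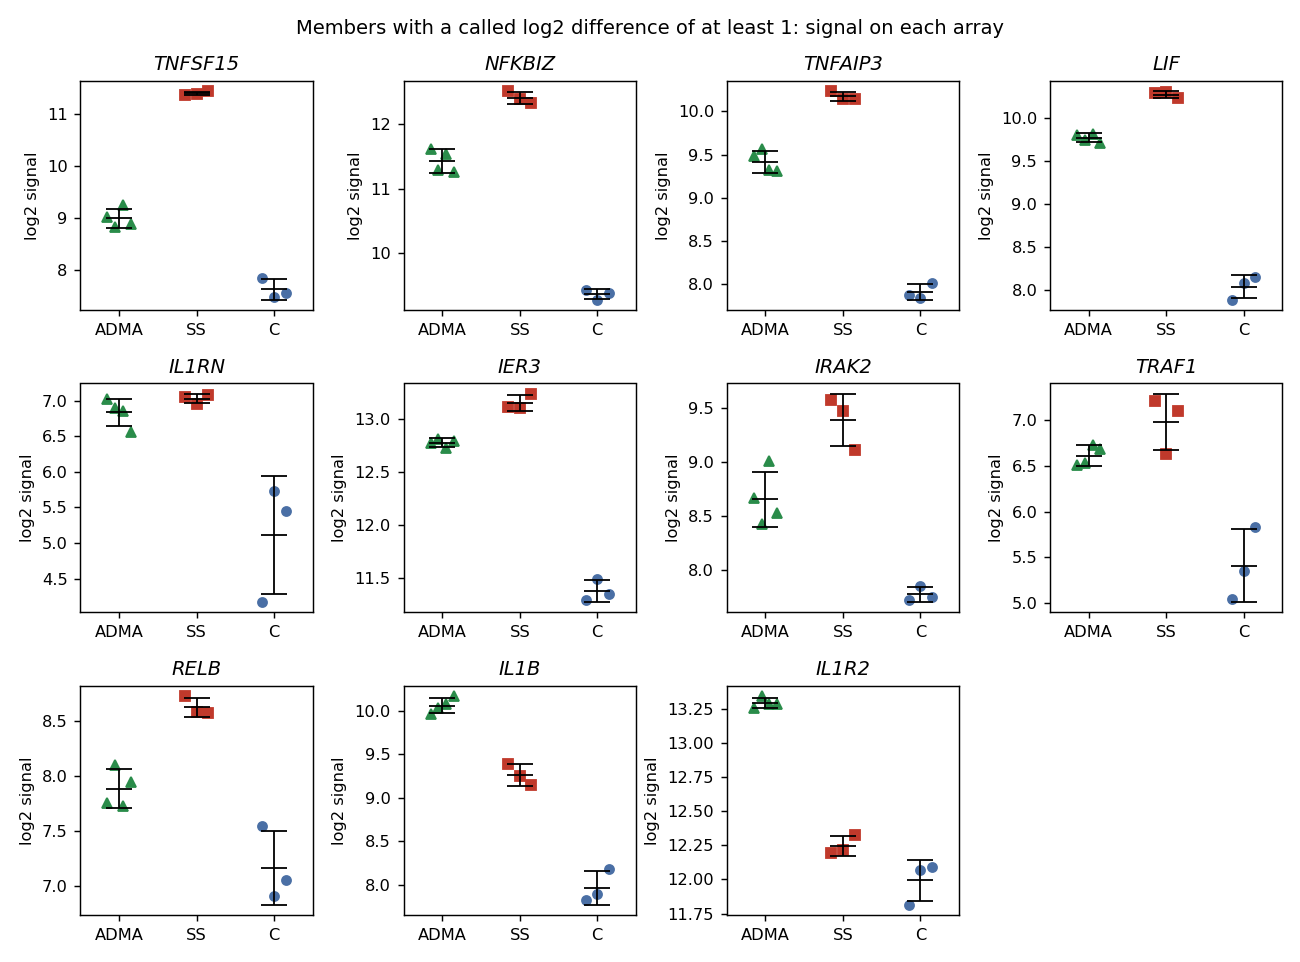
Log2 signal of each array (points) for the 11 members with a difference of at least 1 that passed the test in any comparison, with the mean and SD of each group (ADMA, n = 4; SS, n = 3; C, n = 3). The vertical axes differ between genes; for TNFSF15, NFKBIZ, TNFAIP3, LIF, IER3, IRAK2 and RELB the ADMA arrays lie between the SS and C arrays, while for IL1B and IL1R2 they lie above both.

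The cytokines went different ways. TNFSF15, a ligand of the tumour necrosis factor family that acts on T cells and is linked to inflammatory bowel disease, had log2 signals of 9.01, 8.83, 9.25 and 8.88 on the ADMA arrays, 11.38, 11.39 and 11.44 on the SS arrays, and 7.85, 7.47 and 7.56 on the C arrays. SS was far above both other groups. TNFSF15 rose in SS cells by 3.78 over C, 13.7-fold (standard error 0.12, adjusted p = 4.61e-12), and fell in ADMA cells at -2.41 against SS, 5.31-fold (standard error 0.12, adjusted p = 3.79e-09). These were the largest differences among the 28 members in both comparisons. Its second probe set gave 2.77 and -2.28. LIF, a cytokine of the interleukin 6 family that signals through STAT3, had 9.80, 9.74, 9.82 and 9.71 on the ADMA arrays, 10.29, 10.30 and 10.23 on the SS arrays, and 7.89, 8.08 and 8.15 on the C arrays. The groups of LIF did not overlap, with ADMA nearer to SS than to C. LIF rose in SS cells by 2.23 over C (standard error 0.09, adjusted p = 4.19e-11), fell in ADMA cells at -0.50 against SS (standard error 0.09, adjusted p = 0.000292) and rose in ADMA cells by 1.73 over C (adjusted p = 5.24e-10).

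IL1B, which encodes the inflammatory cytokine IL1-beta, was highest with ADMA. It had 9.96, 10.03, 10.07 and 10.16 on the ADMA arrays, 9.39, 9.25 and 9.14 on the SS arrays, and 7.82, 7.89 and 8.18 on the C arrays. All ADMA arrays lay above all SS arrays, which lay above all C arrays. IL1B rose in ADMA cells by 0.80 over SS (standard error 0.11, adjusted p = 3.71e-05), in SS cells by 1.30 over C (standard error 0.11, adjusted p = 1.07e-07) and in ADMA cells by 2.09 over C, 4.27-fold (adjusted p = 6.68e-10). IL18, another IL1 family cytokine made by epithelium, rose in ADMA cells by 0.38 over SS (standard error 0.10, adjusted p = 0.00647), a call that leaving out ADMA replicate 1, 2 or 3 or SS replicate 3 ended (adjusted p = 0.0136 to 0.0373). Centring ended that call too (0.26, adjusted p = 0.0688). IL18 did not pass between SS and C (-0.28, adjusted p = 0.0293) or between ADMA and C (0.10, adjusted p = 0.412). IL32, an inflammatory cytokine with no mouse counterpart, fell in ADMA cells at -0.80 against C (standard error 0.12, adjusted p = 3.49e-05). Against SS it fell at -0.47 (adjusted p = 0.00479), although its ADMA arrays, 9.21 to 9.76, overlapped its SS arrays, 9.72 to 10.02. Leaving out ADMA replicate 1, 2 or 4 or SS replicate 1 or 3 ended that call (adjusted p = 0.0106 to 0.0249). LTB, lymphotoxin-beta, and CSF1, the macrophage growth factor, did not pass in any comparison, with differences of -0.52 to 0.41 for LTB and -0.03 to 0.28 for CSF1.

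IL1A and TNF, which encode IL1-alpha and tumour necrosis factor, lay under the filter and were not tested. IL1A had 6.21 to 7.25 on ADMA arrays, 5.94 to 6.51 on SS arrays and 4.91 to 5.88 on C arrays, 2 of which lay under the background level. TNF had 5.19 to 6.45 on ADMA arrays, 5.27 to 5.74 on SS arrays and 2.99 to 5.25 on C arrays, and lay under the background level on 1 of 4 ADMA arrays, 1 of 3 SS arrays and 2 of 3 C arrays. With no filter, neither passed in any comparison, the closest being TNF in ADMA against C at 1.87 (standard error 0.54, adjusted p = 0.0123). BCL3 and ZC3H12A had only probe sets that carry several symbols, and BIRC3 had none with its symbol in the annotation used here, so these 3 members were not analysed here. The study's PCR measurement on separate samples reported BIRC3 as higher after 96 h of starvation and lower with ADMA.

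The IL1 antagonists are a soluble competitor of IL1 (IL1RN) and a decoy receptor that binds IL1 without signalling (IL1R2). IL1R2 had 13.26, 13.34, 13.28 and 13.28 on the ADMA arrays, 12.19, 12.22 and 12.33 on the SS arrays, and 11.82, 12.07 and 12.09 on the C arrays. ADMA stood above both other groups, and SS lay slightly above C without overlap. IL1R2 rose in ADMA cells by 1.04 over SS (standard error 0.07, adjusted p = 4.45e-08) and by 1.30 over C (standard error 0.07, adjusted p = 7.72e-10). In SS cells it was 0.25 above C (adjusted p = 0.00567), just under the minimum fold of 1.2, and passed with quantile normalization (0.37, adjusted p = 0.000243). With centring this IL1R2 difference changed sign, to -0.14 (adjusted p = 0.286), so its direction depends on the scaling. IL1RN had 7.02, 6.90, 6.85 and 6.56 on the ADMA arrays, 7.05, 6.95 and 7.08 on the SS arrays, and 4.17, 5.72 and 5.45 on the C arrays, of which 1 lay under the background level. ADMA and SS overlapped and C was lower. IL1RN rose by 1.91 in SS cells over C (standard error 0.37, adjusted p = 0.000333) and by 1.72 in ADMA cells over C (standard error 0.35, adjusted p = 0.000551), the second of which was lost with quantile normalization (1.22, adjusted p = 0.0118).

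Of the other target genes, IER3, an early response gene that modulates apoptosis, had 12.77, 12.81, 12.72 and 12.79 on the ADMA arrays, 13.11, 13.10 and 13.23 on the SS arrays, and 11.29, 11.50 and 11.35 on the C arrays. The groups did not overlap. IER3 rose in SS cells by 1.77 over C (standard error 0.06, adjusted p = 1.13e-11) and fell in ADMA cells at -0.37 against SS (standard error 0.06, adjusted p = 0.000168), staying 1.39 above C (adjusted p = 1.19e-10). SOD2, the mitochondrial superoxide dismutase, averaged 9.37 ± 0.25 in ADMA cells (SD, n = 4), 9.94 ± 0.06 in SS cells (SD, n = 3) and 9.48 ± 0.13 in C cells (SD, n = 3). SOD2 fell in ADMA cells at -0.57 against SS (standard error 0.12, adjusted p = 0.00166). Its rise of 0.46 in SS cells over C (standard error 0.13, adjusted p = 0.00571) was lost with centring (0.07, adjusted p = 0.699) and without any 1 of 5 arrays: SS replicate 1, 2 or 3 or C replicate 1 or 2 (adjusted p = 0.011 to 0.0292). SOD2 rests on 1 probe set, since its 4 others also carry another symbol. ICAM1, the adhesion molecule that binds leukocyte integrins, rose in ADMA cells by 0.71 over C (standard error 0.19, adjusted p = 0.00405). The ICAM1 call was lost with centring (0.20, adjusted p = 0.385), quantile normalization (0.33, adjusted p = 0.146) and without ADMA replicate 3 or 4 or any 1 C array (adjusted p = 0.0115 to 0.0145), and a second ICAM1 probe set had -0.10. TNFAIP2, a gene induced by tumour necrosis factor, did not pass in any comparison, with differences of -0.25 to 0.30.

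**Figure D3:**
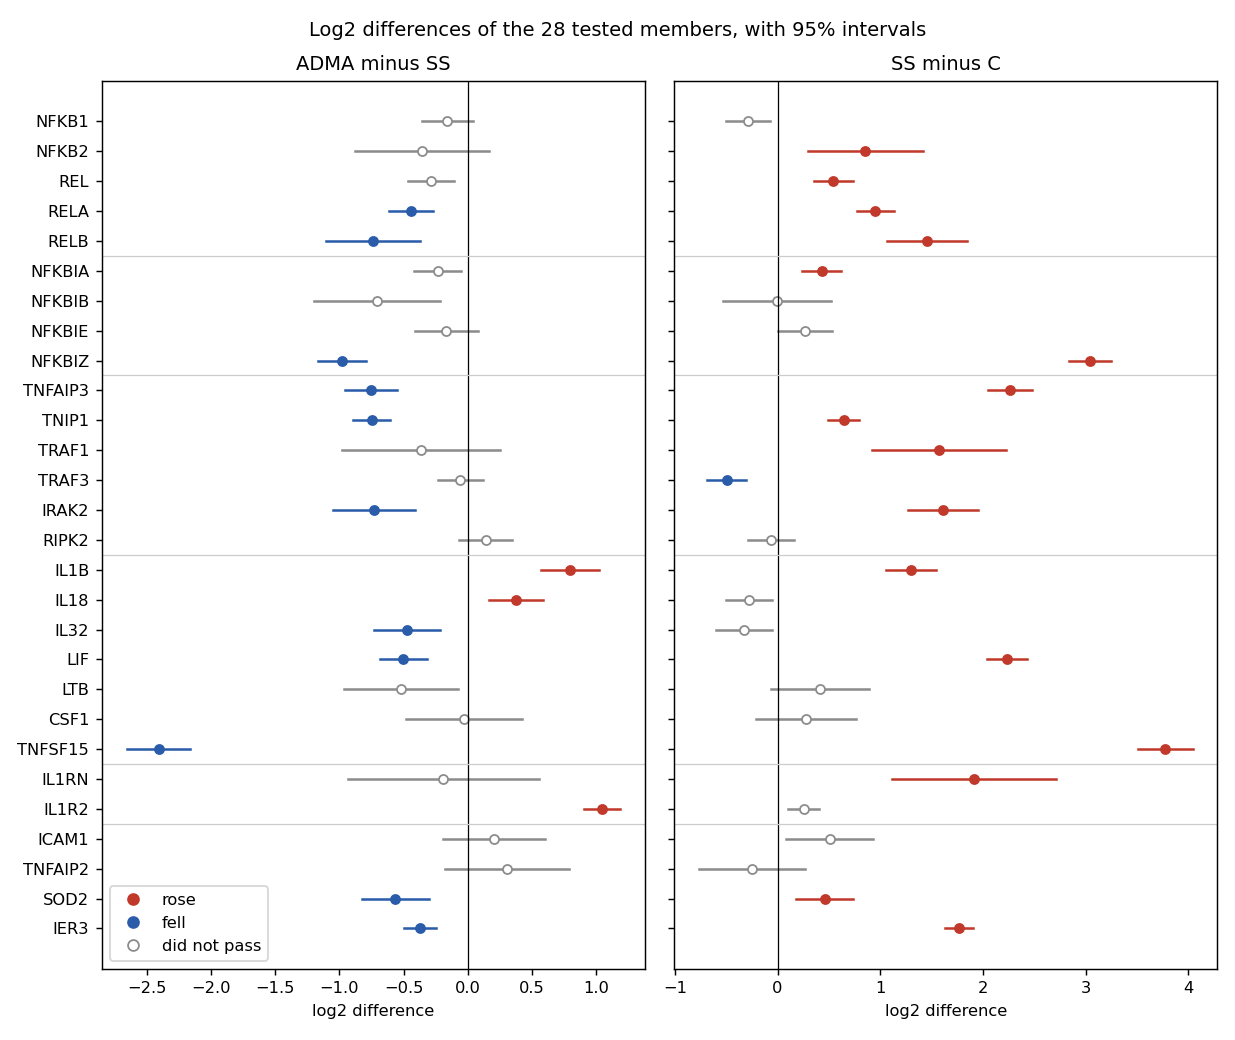
Log2 differences of the 28 tested members with 95% intervals, ADMA minus SS on the left and SS minus C on the right, ordered by role with grey lines between roles. Filled red points rose, filled blue points fell and open grey points did not pass; TNFSF15 lies farthest from 0 in both panels, at -2.41 and 3.78, and both panels share the SS arrays.

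Over the 28 members, 10 of the 17 calls between SS and C held under every alternative that tested the gene, a minimum fold of 2 aside: the rises of RELA, RELB, NFKBIZ, TNFAIP3, TRAF1, IL1B, LIF, TNFSF15, IL1RN and IER3. Between ADMA and SS 6 of 14 did, namely the rises of IL1B and IL1R2 and the falls of NFKBIZ, TNFAIP3, LIF and TNFSF15. TRAF1 and IL1RN averaged 5.41 and 5.11 in C cells, under the filter at a log2 signal of 6.25, and passed the filter only through the arrays where they were high, so their rises over C carry no support from having passed. The members had 16 other probe sets over the filter. Among those of members called in SS against C, 9 of 10 had the sign of the probe set used, the exception being 1 of REL. This counts signs and not sizes: the second probe set of RELA had 0.02 there, against 0.95 for the one used. In ADMA against SS 6 of 6 had that sign, and in ADMA against C 7 of 9, the exceptions being 1 of RELA and 1 of ICAM1.

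Other genes of the pathway were read as 4 lists, whose counts stand beside the shares over all genes tested: 30.3% rose and 27.3% fell in SS against C, 15.7% and 13.8% in ADMA against SS, and 26.6% and 23.2% in ADMA against C. These lists were also chosen with earlier results of these data known, so their counts are a description only. Among 17 tested receptors and adaptors, 3 rose (17.6%) and 3 fell in SS cells against C, with a median of 0.16 that turned to -0.06 with quantile normalization and -0.23 with centring. TRAF5, an adaptor of tumour necrosis factor receptors, rose by 1.32 (standard error 0.08), while TLR2, a receptor for bacterial lipoproteins, fell at -1.32 (standard error 0.28) and the receptor TNFRSF1B at -0.87 (standard error 0.13). TLR2 averaged 6.15 in SS cells, under the filter at 6.25, and passed it only through its C and ADMA arrays. Its fall carries no support from having passed. In ADMA cells against SS 3 rose and 0 fell, with a median of 0.10 that turned to -0.02 with centring. The 3 that rose were TNFRSF1A, the main receptor for tumour necrosis factor, by 0.74 (standard error 0.11), the cytosolic peptidoglycan sensor NOD1 by 0.52 (standard error 0.13) and TNFRSF1B by 0.46 (standard error 0.12). In SS cells against C the array difference of TNFRSF1A was -0.13 (adjusted p = 0.369). The study's PCR measurement on separate samples reported TNFRSF1A as higher after 96 h of starvation and lower with ADMA. It reported the same directions for BIRC2, CFLAR, CYLD and XIAP, which are in the lists below. On the arrays XIAP rose in SS cells by 1.11 over C and fell in ADMA cells at -0.59 against SS. BIRC2 rose in SS cells by 0.72 and CYLD by 1.38, but neither passed in ADMA against SS (-0.04 and -0.65). CFLAR passed in neither comparison (-0.09 and 0.04). The discrepancies were not tested.

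Among 21 tested kinases, ubiquitin ligases and scaffolds that activate IKK, 13 rose (61.9%) and 2 fell in SS cells against C (median 0.55), which became 8 and 4 with centring (median 0.16). BTRC, the ligase subunit that recognises phosphorylated IkB, rose by 1.48 (standard error 0.16), RBCK1, a subunit of the linear ubiquitin chain assembly complex, by 1.26 (standard error 0.05) and TAB3, which links ubiquitin chains to the kinase upstream of IKK, by 1.25 (standard error 0.10). In ADMA cells against SS 1 rose and 7 fell (median -0.22), led by CHUK, the IKK-alpha kinase, at -0.74 (standard error 0.10), TAB2 at -0.60 (standard error 0.07) and the scaffold CARD10 at -0.60 (standard error 0.07). CHUK itself did not pass in SS cells against C (0.10, adjusted p = 0.42). Of 14 further inhibitors and feedback regulators 9 rose (64.3%) and 0 fell in SS cells (median 0.47), or 3 and 1 with centring (median 0.08), and in ADMA cells against SS 0 rose and 4 fell (median -0.20). The deubiquitinase CYLD rose in SS cells by 1.38 (standard error 0.21), the RNA-degrading ZC3H12C by 1.30 (standard error 0.12) and the ubiquitin ligase ITCH by 0.998 (standard error 0.10). ITCH fell in ADMA cells against SS at -0.66 (standard error 0.09), ZC3H12C at -0.47 (standard error 0.11) and SIGIRR, an inhibitory receptor of the IL1 family, at -0.42 (standard error 0.10).

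Of 32 other textbook target genes 30 had a probe set in use and 17 passed the filter, so these counts leave out the dim ones. Like the other lists, this list was chosen with earlier results of these data known. In SS cells against C 13 of the 17 rose (76.5%) and 1 fell (median 1.30, or 0.91 with centring, where 12 rose and 3 fell). In ADMA cells against SS 0 rose and 12 fell (70.6%; median -0.82, or -0.93 with centring, where the counts were the same). The neutrophil chemokine CXCL8 averaged 9.20 ± 0.59 in ADMA cells (SD, n = 4), 11.96 ± 0.15 in SS cells (SD, n = 3) and 7.30 ± 0.35 in C cells (SD, n = 3). It rose in SS cells and fell in ADMA cells against SS, at -2.75 (standard error 0.25, adjusted p = 8.75e-07). F3, tissue factor, rose in SS cells by 2.77 (standard error 0.12). PTGS2, the inducible cyclooxygenase, was the 1 target that fell in SS cells, at -2.57 against C (standard error 0.12, adjusted p = 1.27e-10), and it did not pass in ADMA cells against SS (0.22, adjusted p = 0.123). The kinase PLK2 fell in ADMA cells against SS at -1.52 (standard error 0.08) and the urokinase gene PLAU at -1.33 (standard error 0.13). In ADMA cells against C 11 targets rose and 1 fell, which became 5 and 4 with centring. There the receptors had 6 rises and 1 fall (2 and 7 with centring), the IKK list 10 and 2 (3 and 8 with centring) and the further inhibitors 4 and 0 (0 and 4 with centring).

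**Figure D4:**
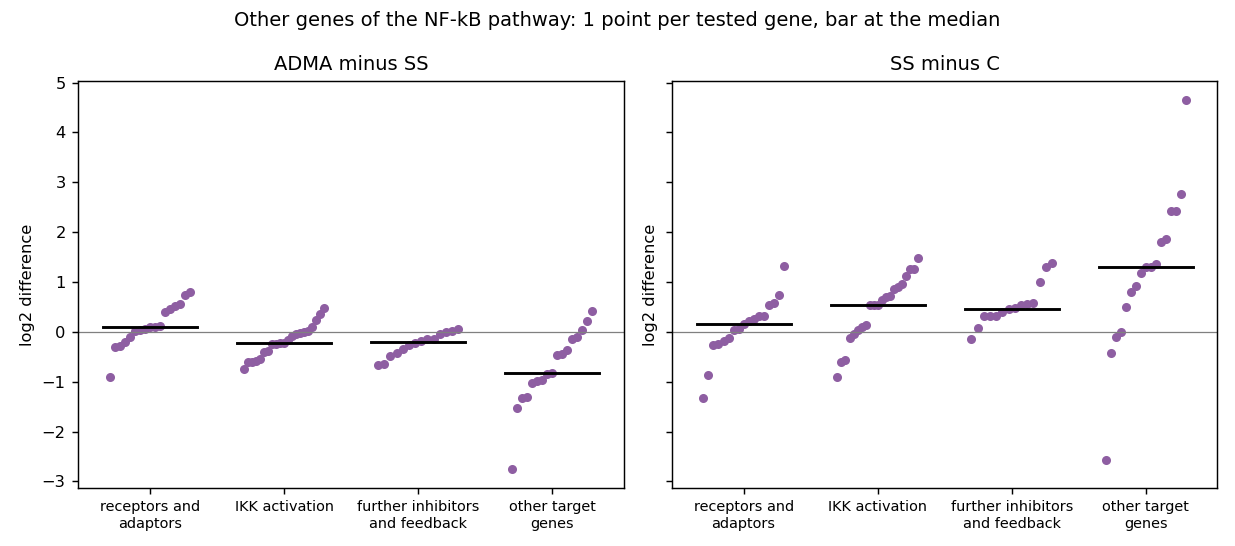
Log2 differences of the tested genes of 4 pathway lists, 1 point per gene in order of size, with a black bar at the median of each list, ADMA minus SS on the left and SS minus C on the right. The target genes have medians of -0.82 and 1.30; the receptors have medians of 0.10 and 0.16, which turn to -0.02 and -0.23 with arrays centred on their medians, and the SS minus C one to -0.06 with quantile normalization.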

How the data were processed

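Log2 values were taken, with no pseudocount, from the intensities deposited by the authors, who summarised each of 54675 probe sets with MAS 5.0 on a linear scale and scaled each array. By the platform annotation, 41091 probe sets carry 1 symbol, 1801 several and 11721 none, and 62 are controls. One linear model over the 10 arrays was fitted in R 4.3.3 with limma 3.58.1 (lmFit, then eBayes using the intensity trend). The thresholds are those of the SAM analysis in the study's methods, and SAM, other scalings, filters, probe set rules and each array left out were alternatives. The background level of an array is the 95th percentile of its 27 Bacillus control probe sets. The steps were tested on simulated data. The members and lists were chosen with earlier results of these data known. Values on every array are given for members with a called difference of at least 1, and in each pathway list the 3 called genes with the largest difference are named. Array number limits the precision. No array was counted as a duplicate, since log2 signals of arrays within a group correlated at 0.946 at most. Plots used matplotlib 3.10.9 under Python 3.11.15.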

Additional observations from a re-analysis of the deposited data

How the results depend on the processing

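With a minimum fold of 2, 10 members rose in SS cells against C and 0 fell, 1 rose and 1 fell in ADMA cells against SS, and 0 fell in ADMA cells against C. SAM called 0 falls in SS against C and 7 in ADMA against SS; it did not call NFKBIA, REL, SOD2, TNIP1 or TRAF3 in SS against C, IER3, IL18, IL32, RELA or SOD2 in ADMA against SS, or NFKB1, RELA or TRAF3 in ADMA against C. With arrays centred on their medians, 8 members rose and 9 fell in ADMA against C, and 5 fell in SS against C. There IL18 (-0.41, adjusted p = 0.00207), NFKBIE (-0.41, adjusted p = 0.00766) and RIPK2 (-0.43, adjusted p = 0.004) passed as lower in ADMA against C, where none of them had passed before, since the centring lowers every difference by the same amount. It also called RIPK2 (-0.45, adjusted p = 0.00459), IL18 (-0.67), IL32 (-0.71) and NFKB1 (-0.68) lower in SS against C, and SOD2 (-0.61), TNIP1 (-0.61) and NFKBIB (-1.22) lower in ADMA against C. A filter at the 75th percentile left 8 members higher in ADMA against C, since fewer genes were tested. At an adjusted p under 0.05 with no minimum fold 4 members fell in SS against C. The mean over probe sets turned IRAK2 in ADMA against C to -0.18, and ended the calls of IRAK2, NFKB2, NFKBIA, REL and TNIP1 in SS against C, IL18, IRAK2, RELA and TNIP1 in ADMA against SS, and ICAM1, RELA and TRAF1 in ADMA against C, while it added NFKBIB as lower in ADMA against SS and against C. The cause of the other changes was not tested.

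Leaving out 1 array at a time gave 14 to 16 rises and 1 fall each time in SS against C, 2 to 3 rises and 9 to 11 falls in ADMA against SS, and 11 to 13 rises and 3 to 4 falls in ADMA against C. Replicate numbers shared between groups did not pair the arrays (correlations of deviations from -0.07 to 0.10). With the replicate block, over replicates 1 to 3 or over all arrays, 2 members fell in SS against C instead of 1, NFKB1 being added at -0.29 (adjusted p = 0.00727 and 0.00765), and ICAM1 in ADMA against C was no longer called (0.63, adjusted p = 0.0126 and 0.0119). Of all genes, 3738 rose and 3372 fell in SS against C as deposited, with 1611 and 1205 at a fold of 2, 2013 and 5184 with centring and 2032 falls by SAM. In ADMA against SS 1935 rose and 1704 fell, with 231 and 157 at a fold of 2, 901 rises with centring and 981 and 920 by SAM. In ADMA against C 3284 rose and 2859 fell, with 1133 and 543 at a fold of 2, 1209 and 6101 with centring and 1520 falls by SAM. Quantile normalization moved the median of all genes by -0.11 in SS against C, -0.02 in ADMA against SS and -0.13 in ADMA against C. The number of arrays and signals near background limit TRAF1, IL1RN, IL1A and TNF.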
